A study of Xenopus tropicalis with 4 samples.

Results

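The lipid enzymes, lipid mediator receptors and lipid transport genes described here are 58 X. tropicalis genes, chosen by the start of their symbol (ptgs, ptge, pla2, enpp2, pld, plc, acs, elovl, fads, dgat, agpat, lpin, lpcat, acot, cpt, hsd, dhrs, cers, sphk, sgpp, hmgc, ldlr, apo and a few more) among the 6622 of 34177 counted gene identifiers for which a symbol was at hand. They were measured by RNA-seq in animal caps (ACs), explants of the blastula's prospective ectoderm that form a larval epidermis in culture, at NF16, the neurula stage. The question was how depletion of SUV4-20H1 and SUV4-20H2, the enzymes that add the second and the third methyl group to lysine 20 of histone H4, alters the transcripts of this tissue. H1H2Mo ACs came from embryos injected radially with 20 ng each of a suv4-20h1 and a suv4-20h2 morpholino (antisense oligonucleotides that block translation), and CoMo ACs from embryos injected with a control morpholino, with 2 libraries per condition. Each library was made from the pooled RNA of approximately 30 ACs, so that a knockdown in a mixed tissue was measured, and spread between single explants cannot be seen. Both groups were injected, and the labels name no mutation or transgene in either.

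Membrane phospholipids are the store from which cells cut lipid signals. Phospholipases A2 release arachidonic acid, which cyclooxygenases turn into prostaglandins. Autotaxin (enpp2) makes lysophosphatidic acid, sphingosine kinases make sphingosine 1-phosphate, and phospholipases C split phosphoinositides into inositol trisphosphate and diacylglycerol. Elongases, acyl-CoA synthetases and acyltransferases supply and place the acyl chains, and the epidermis is known for very long acyl chains in its barrier lipids.

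The libraries held 25877342 and 17093124 reverse-strand read pairs on genes in H1H2Mo ACs, and 17027883 and 47375336 in CoMo ACs. CPM are read pairs relative to library size, after TMM scaling. They are not divided by transcript length, so that levels are compared between conditions and not between genes. All 58 genes had at least 1 read in 3 of the 4 libraries, the filter of the study's methods, and were tested with 19371 genes in all. A gene is called here when its Benjamini-Hochberg adjusted p in edgeR's quasi-likelihood test is under 0.05, and ± after a log2 fold change (H1H2Mo over CoMo) is its standard error. Both H1H2Mo libraries together were compared with both CoMo libraries, and the p-values measure the spread between these 2 libraries per condition. The study describes its replicates as biological and more of them than are used here, and the labels do not tie the libraries to clutches of embryos. The morpholino targets give no check of the knockdown, because a block of translation need not lower a transcript. The suv4-20h1 transcript (suv420h1) was at 89.5 and 82.6 CPM in H1H2Mo ACs and at 109.4 and 123.4 CPM in CoMo ACs. The suv4-20h2 transcript (kmt5c) was at 147.6 and 171.7 CPM in H1H2Mo ACs, above 47.8 and 58.3 CPM in CoMo ACs.

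Of the 58 lipid genes, 28 were called, 20 lower and 8 higher in H1H2Mo ACs, against 16.5% called among all genes tested (10.7% lower and 5.83% higher) and 39.4% among those with a symbol (26.4% lower and 13.0% higher). These shares cannot be read against each other directly. A gene has a symbol here because one of the authors' lists names it, and the list of this contrast at hand holds 1998 genes, those of lowest p in these same libraries. It names 22 of the lipid genes, all 22 of which were called (18 lower and 4 higher), as were 98.9% of all tested genes in that list (71.0% lower and 27.9% higher). The values of these 22 genes are therefore given as a description, without p-values. The other 36 lipid genes are named only in the lists of other contrasts, which leaves out those of lowest p. Some of those lists compare ACs given the same morpholinos and mRNA of the histone demethylase PHF8 with ACs given that mRNA alone. Being named there may therefore not be independent of a response to the knockdown. Among the 36 genes 6 were called (16.7%), 2 lower and 4 higher, against 12.6% of the 4407 tested genes named in the same way (6.35% lower and 6.26% higher), a share near that background. Their median log2 fold change was -0.10, against 0.14 for the genes named in the same way. That of all 58 lipid genes, which include the 22 in the list of this contrast, was -0.76. The median was -0.14 for all genes with a symbol and 0.05 for all genes tested. Leaving out either CoMo library removed most of the calls, but the spread then came from the H1H2Mo libraries alone. The loss therefore cannot show whether the calls rested on the CoMo values. All 28 called genes kept their direction. Some sizes hardly moved, such as pla2g4a (-1.77 with all libraries, -1.75 without CoMo replicate 1). Others did, such as plcb2 (-4.09 with all libraries, -2.44 without CoMo replicate 1).

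**Figure D1:**
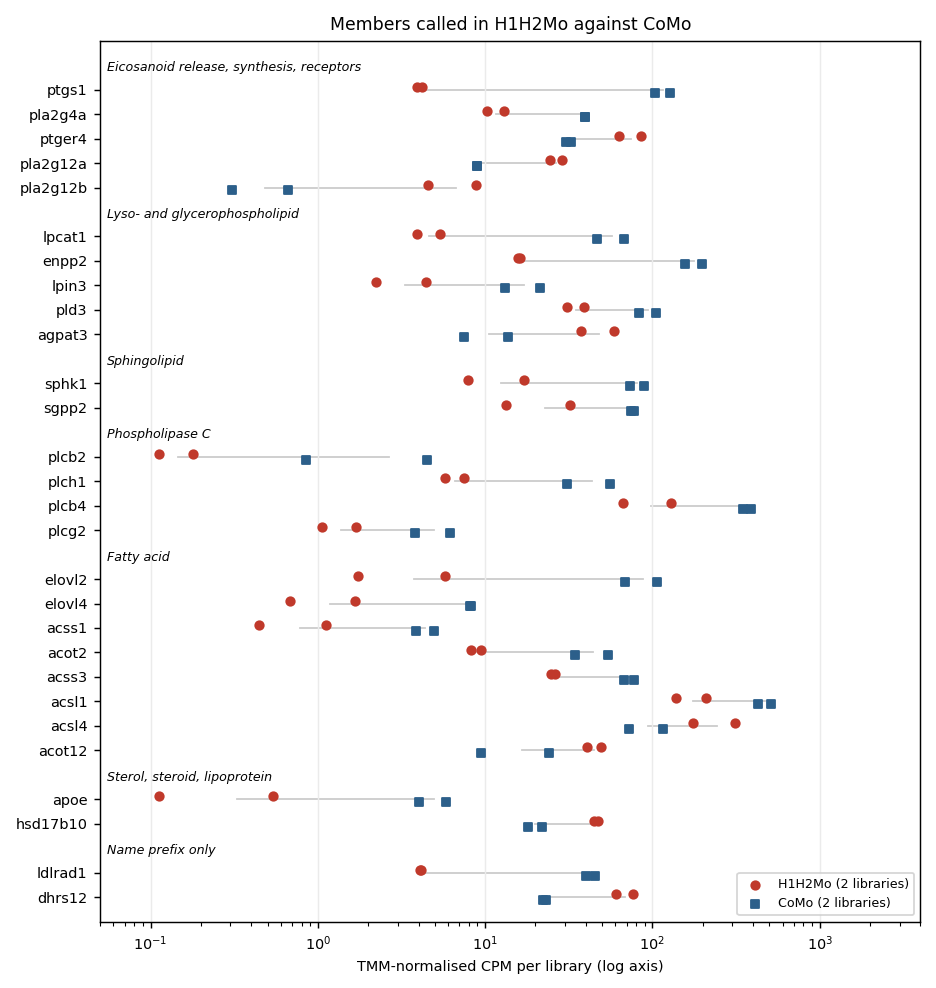
TMM-normalised CPM (log axis) of the 28 called lipid genes in each library, by role, with H1H2Mo as circles and CoMo as squares (2 libraries each) and a grey line joining the condition means. The circles lie to the left of the squares in 20 genes and to the right in 8. A difference of over 10-fold is seen in 7 of the lower genes (ptgs1, elovl2, plcb2, apoe, lpcat1, enpp2 and ldlrad1) and 1 of the higher ones (pla2g12b). All genes with such a difference are in the list of this contrast, which holds genes of lowest p in these same libraries. Plcb2 and apoe rest on few reads in H1H2Mo ACs, and pla2g12b on 5 and 29 in CoMo ACs.

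Among the 11 genes of eicosanoid release, synthesis and reception, 2 were called lower and 3 higher. All of these called genes but ptger4 are in the list of this contrast, where 98.9% of the tested genes were called. Ptgs1 (gene19900, on chromosome 8 of assembly 9.1) encodes cyclooxygenase 1, the constitutive enzyme of prostaglandin synthesis. It was at 3.93 and 4.19 CPM in H1H2Mo ACs and at 127.7 and 103.4 CPM in CoMo ACs, the strongest fall of the lipid genes at 28.4-fold (log2 fold change -4.83 ± 0.37). These levels rest on 109 and 75 read pairs in H1H2Mo ACs and on 2092 and 4533 in CoMo ACs, so that the libraries of a condition lay close together and the conditions far apart. Among the 22 lipid genes in the list of this contrast, ptgs1 was the only one annotated there to the cilium. Ptgs2, which encodes the inducible cyclooxygenase 2, was at 51.1 and 57.3 CPM in H1H2Mo ACs and at 95.8 and 112.3 CPM in CoMo ACs, a log2 fold change of -0.94 ± 0.32 that was not called (edgeR, adjusted p = 0.061). Both H1H2Mo libraries thus lay below both CoMo libraries for either cyclooxygenase, as they did in 30.7% of all genes tested. The within-library ratio of ptgs1 to ptgs2 CPM was 0.0769 and 0.0732 in H1H2Mo ACs, against 1.33 and 0.9202 in CoMo ACs. This ratio, and those of other gene pairs given below, were chosen after the values were seen and are not per length. Where the genes of a pair moved in opposite directions without overlap, their ratio separates the conditions by construction.

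The phospholipases A2 moved in opposite directions. Pla2g4a, the cytosolic enzyme that prefers arachidonic acid at the middle position of the glycerol, was at 10.3 and 12.9 CPM in H1H2Mo ACs and at 39.4 and 39.5 CPM in CoMo ACs (-1.77 ± 0.34). The secreted-type pla2g12a was at 28.9 and 24.4 CPM in H1H2Mo ACs and at 8.97 and 8.99 CPM in CoMo ACs (1.57 ± 0.36). The ratio of pla2g4a to pla2g12a was 0.358 and 0.529 in H1H2Mo ACs, and 4.39 and 4.40 in CoMo ACs. Its relative pla2g12b, whose protein is thought to lack phospholipase activity in mammals, was at 8.88 and 4.58 CPM in H1H2Mo ACs and at 0.305 and 0.661 CPM in CoMo ACs. This was the strongest rise of the lipid genes at 13.1-fold (3.72 ± 0.64). With 1 library left out, the log2 fold change of pla2g12b lay between 3.17 and 4.46. The calcium-independent pla2g6 did not pass the test, with 30.1 and 10.9 CPM in H1H2Mo ACs and 8.79 and 9.15 CPM in CoMo ACs (edgeR, adjusted p = 0.10), and 25.3% of its stranded reads lay on the opposite strand.

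Downstream of the cyclooxygenases, ptger4, a receptor for prostaglandin E2, was at 85.0 and 63.3 CPM in H1H2Mo ACs and at 30.5 and 32.8 CPM in CoMo ACs. It rose by a log2 fold change of 1.23 ± 0.33 (edgeR, adjusted p = 0.021), and since it is not in the list of this contrast, it was not named for a low p there. It is named, however, in a list that compares the same morpholinos with PHF8 mRNA against that mRNA alone. The prostaglandin E synthase ptges missed the threshold, with 2.53 and 2.74 CPM in H1H2Mo ACs and 12.4 and 4.61 CPM in CoMo ACs (-1.69, edgeR, adjusted p = 0.051). Its log2 fold change was -0.79 without CoMo replicate 1 and -2.23 without CoMo replicate 2, and it was called with RLE scaling, without a filter on low counts, in unstranded counts, with crossed pairs as a block and by DESeq2. The receptor ptger3, the second synthase ptges2 and the phospholipase pla2g4f were not called either. Of 3 further genes that convert or break down prostaglandins, hpgds (a prostaglandin D synthase) was at 127.5 and 106.0 CPM in H1H2Mo ACs and 101.7 and 107.1 CPM in CoMo ACs, and hpgd, the dehydrogenase that inactivates prostaglandins, was at 54.9 and 34.0 CPM in H1H2Mo ACs and 43.4 and 47.0 CPM in CoMo ACs. The ranges overlapped between conditions in both. The prostaglandin reductase ptgr1.2 was called higher (1.95 ± 0.60, edgeR, adjusted p = 0.043), with its H1H2Mo libraries far apart at 5.23 and 23.8 CPM, against 3.05 and 4.38 CPM in CoMo ACs.

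**Figure D2:**
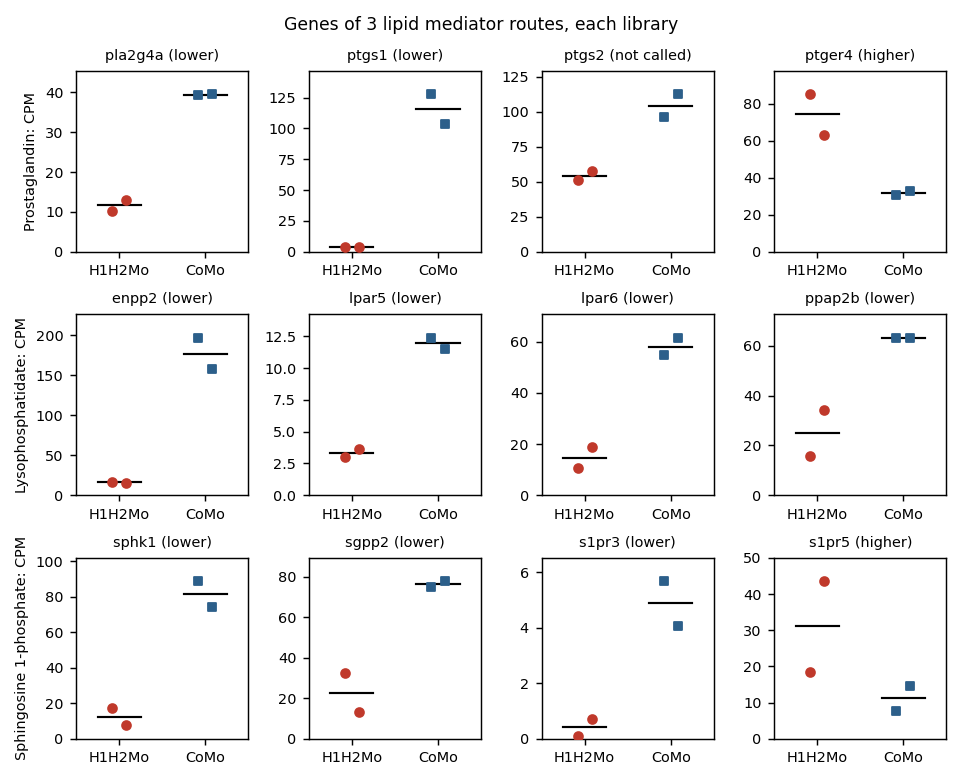
TMM-normalised CPM (linear axes from 0, a scale for each gene) of 4 genes each of the prostaglandin, lysophosphatidate and sphingosine 1-phosphate routes, with a point per library and a bar at the mean of the 2 libraries. H1H2Mo libraries sit below CoMo libraries in every panel except ptger4 and s1pr5, where they sit above. Conditions were free of overlap in 59.5% of all genes tested. Pla2g4a, ptgs1, enpp2, lpar5, lpar6, sphk1, sgpp2 and s1pr3 are in the list of this contrast. Other genes of these routes are not shown, among them lpar1, hpgd and hpgds, which overlapped, and pla2g12a and s1pr1, which were higher in both H1H2Mo libraries.

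Lysophosphatidic acid is made outside the cell by autotaxin, the product of enpp2, and acts through receptors on the cell surface. Enpp2 (gene100, on chromosome 6) was at 16.2 and 15.7 CPM in H1H2Mo ACs and at 196.8 and 157.5 CPM in CoMo ACs, from 450 and 281 read pairs in H1H2Mo ACs and 3225 and 6906 in CoMo ACs. The fall was 11.1-fold (-3.47 ± 0.35), and the spread within each condition was small beside it. Of 3 receptors for this lipid, which are no members of the 58, lpar5 was at 3.03 and 3.63 CPM in H1H2Mo ACs and 12.4 and 11.5 CPM in CoMo ACs (-1.84 ± 0.43). Lpar6 was at 10.7 and 18.7 CPM in H1H2Mo ACs and at 54.7 and 61.5 CPM in CoMo ACs (-1.99 ± 0.37), and lpar1 was not called (-0.42). Lpar5 and lpar6 are both in the list of this contrast. The phosphatase ppap2b, which breaks lysophosphatidic acid down at the cell surface and is not in that list, fell by 1.35 on the log2 scale (edgeR, adjusted p = 0.032), with 15.7 and 34.1 CPM in H1H2Mo ACs and 63.2 CPM in each CoMo library. Plpp1, a phosphatase of the same family as ppap2b, was not called (-0.66 ± 0.34, edgeR, adjusted p = 0.22). Thus enpp2, lpar5, lpar6 and ppap2b were called lower in H1H2Mo ACs, while lpar1 and plpp1 were not called. Of the lower genes, all but ppap2b are in the list of this contrast, and the route as a whole was not tested.

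The other 10 genes of lyso- and glycerophospholipid turnover held 3 called lower and 1 called higher. All of these called genes are in the list of this contrast, where 98.9% of the tested genes were called. Lpcat1, which puts an acyl chain back on lysophosphatidylcholine, was at 3.90 and 5.36 CPM in H1H2Mo ACs and at 67.7 and 46.5 CPM in CoMo ACs, a 12.4-fold fall (-3.63 ± 0.39). Lpcat4, of the same activity, was at 352.5 and 355.2 CPM in H1H2Mo ACs and at 439.9 and 634.4 CPM in CoMo ACs and was not called (-0.60 ± 0.36, edgeR, adjusted p = 0.29). The ratio of lpcat1 to lpcat4 was 0.0111 and 0.0151 in H1H2Mo ACs, and 0.154 and 0.0733 in CoMo ACs. Agpat3, which acylates lysophosphatidic acid to phosphatidic acid, was the gene called higher, with 59.2 and 37.2 CPM in H1H2Mo ACs and 7.44 and 13.6 CPM in CoMo ACs (2.19 ± 0.40). Its relative agpat4 was at 26.9 and 13.5 CPM in H1H2Mo ACs and 41.3 and 24.02 CPM in CoMo ACs (-0.69 ± 0.41, edgeR, adjusted p = 0.29), with overlapping conditions, and agpat1 and agpat5 were not called, with log2 fold changes of -1.25 and 1.33. The acyltransferases of this step therefore gave values on both sides of 0. Lpin3, a lipin that dephosphorylates phosphatidic acid to diacylglycerol, was at 4.40 and 2.23 CPM in H1H2Mo ACs and at 21.2 and 13.1 CPM in CoMo ACs (-2.35 ± 0.47). Pld3, a lysosomal protein of the phospholipase D family, known in mammals as a nuclease, was at 39.0 and 31.0 CPM in H1H2Mo ACs and at 83.7 and 104.7 CPM in CoMo ACs (-1.43 ± 0.33). Dgat1, which makes triacylglycerol, and lpcat2 were not called.

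In the sphingolipid class of 4 genes, 2 were called, both lower. Both are in the list of this contrast, where 98.9% of the tested genes were called. Sphk1, the kinase that makes sphingosine 1-phosphate, was at 17.1 and 7.88 CPM in H1H2Mo ACs and at 88.6 and 73.9 CPM in CoMo ACs (-2.70 ± 0.41). Sgpp2, a phosphatase that takes the phosphate off again, was at 32.2 and 13.2 CPM in H1H2Mo ACs and at 74.8 and 77.7 CPM in CoMo ACs (-1.74 ± 0.41). With 1 library left out, the log2 fold change lay between -3.36 and -2.25 for sphk1. For sgpp2 it lay between -2.52 and -1.24. Kinase and phosphatase were thus lower in both H1H2Mo libraries, and their ratio was 0.530 and 0.595 in H1H2Mo ACs and 1.19 and 0.952 in CoMo ACs. Cers2, a ceramide synthase for very long acyl chains, was not called at 808.4 and 555.3 CPM in H1H2Mo ACs and 467.0 and 518.0 CPM in CoMo ACs (0.47 ± 0.37, edgeR, adjusted p = 0.44), and cers6 was at most at 0.144 CPM in any library. Of the receptors for sphingosine 1-phosphate, s1pr3 was at 0.108 and 0.726 CPM in H1H2Mo ACs and at 5.68 and 4.08 CPM in CoMo ACs (-3.61 ± 0.80). S1pr5 was at 18.6 and 43.5 CPM in H1H2Mo ACs and at 7.75 and 14.6 CPM in CoMo ACs (1.46 ± 0.46, edgeR, adjusted p = 0.045), and s1pr1 was not called (0.52). These receptors differed in direction. Among 8 further sphingolipid genes, 1 was called: sgms1, a sphingomyelin synthase, with 325.7 and 133.5 CPM in H1H2Mo ACs and 60.7 and 87.0 CPM in CoMo ACs (1.64 ± 0.43). Sgms1, like s1pr3, is in the list of this contrast. Of all genes with a symbol, 39.4% were called.

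Of the 6 phospholipases C, 4 were called lower and none higher (median log2 fold change -1.88, against -0.14 for genes with a symbol). The list of this contrast, where 71.0% of the tested genes were called lower, names 3 of these 4, which leaves 1 call among the 3 others. Plcb4, of the beta class that G protein-coupled receptors activate, was at 129.0 and 67.1 CPM in H1H2Mo ACs and at 350.0 and 388.6 CPM in CoMo ACs (-1.91 ± 0.39). Plch1, of the eta class, was at 5.74 and 7.43 CPM in H1H2Mo ACs and at 56.0 and 30.9 CPM in CoMo ACs (-2.72 ± 0.40). Both conditions were clear of each other in these genes. Plcb2 rested on few reads, 5 and 2 in H1H2Mo ACs and 74 and 37 in CoMo ACs, which gave 0.180 and 0.112 CPM in H1H2Mo ACs and 4.52 and 0.844 CPM in CoMo ACs. Its log2 fold change of -4.09 ± 1.00 was -2.44 without CoMo replicate 1 and -4.84 without CoMo replicate 2, so that its size depended on which CoMo library was used. Plcg2, of the gamma class that tyrosine kinases activate, is not in the list of this contrast and was at 1.70 and 1.06 CPM in H1H2Mo ACs and at 3.78 and 6.16 CPM in CoMo ACs (-1.84 ± 0.57, edgeR, adjusted p = 0.044). Its call was lost with the replicate number as a block (edgeR, adjusted p = 0.051), with upper-quartile scaling, with a stricter filter and in unstranded counts, and 40.4% of its stranded reads lay on the opposite strand. Plcg1 was not called at 66.5 and 127.9 CPM in H1H2Mo ACs and 195.0 and 149.7 CPM in CoMo ACs (-0.83 ± 0.38, edgeR, adjusted p = 0.16), nor was plch2.

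Around the phospholipases C, 16 identifiers of phosphoinositide and diacylglycerol signalling held 6 called lower and 2 called higher, with a median log2 fold change of -0.90, against -0.14 for genes with a symbol. The list of this contrast, where 98.9% of the tested genes were called, names 6 of these 8. The kinases that make the substrate differed among themselves. Pip5k1b (-2.34) and the kinase-like pip5kl1 (-4.23) were lower in H1H2Mo ACs, while pip5k1c (1.91) and pip4k2a (1.87) were higher. Both identifiers of pip5k1a lay above CoMo in each H1H2Mo library without being called (1.60 and 1.01). Of the proteins that respond to diacylglycerol, the protein kinases C prkcb (-1.63) and prkcd (-1.28) and the Ras activator rasgrp1 (-2.22) were lower, as was the diacylglycerol kinase dgkh (-1.57). Rasgrp4, of the same family as rasgrp1, was not called (0.94), and its conditions overlapped. Prkcd and dgkh are outside the list of this contrast (edgeR, adjusted p = 0.033 and 0.036). Itpr3, a receptor for inositol trisphosphate, was not called, with 642.6 and 218.1 CPM in H1H2Mo ACs and 483.2 and 540.3 CPM in CoMo ACs.

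**Figure D3:**
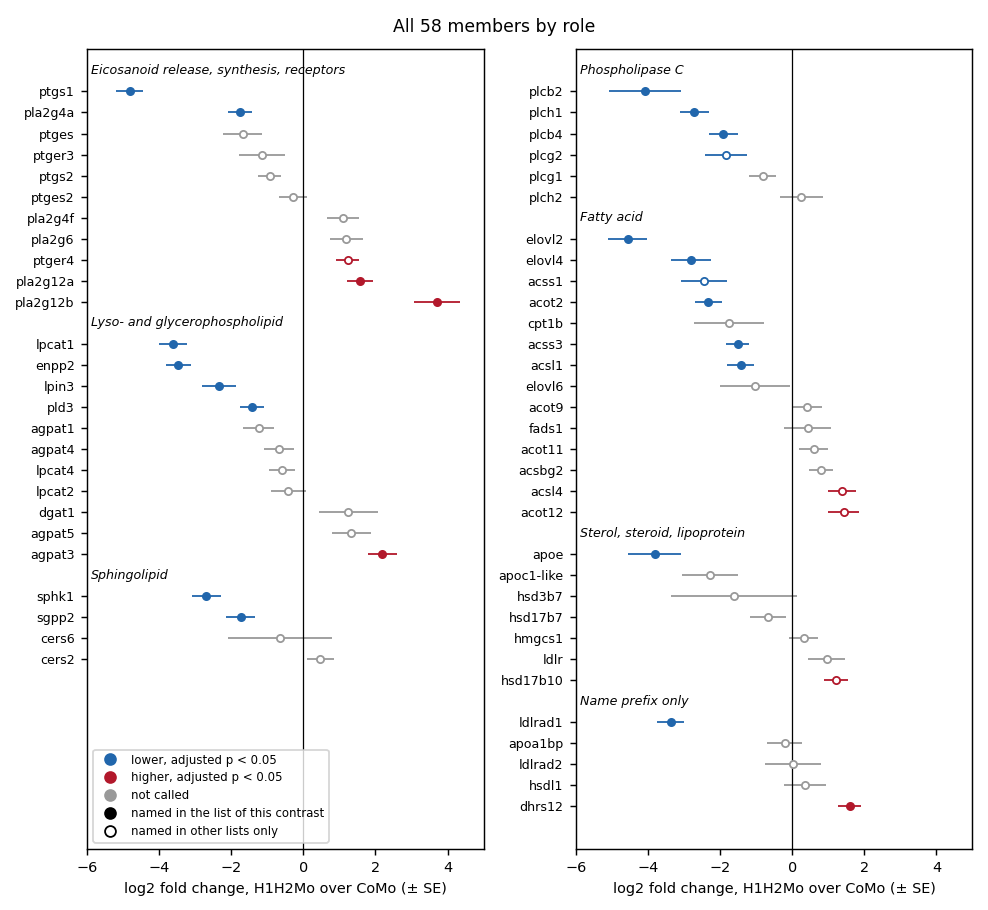
Log2 fold change (H1H2Mo over CoMo) with its standard error for all 58 lipid genes by role, blue where called lower, red where called higher and grey where not called. Filled points are genes named in the list of this contrast, which holds genes of lowest p in these same libraries. Open points are the other 36, of which 2 are blue and 4 are red.

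The largest class, with 14 genes of fatty acid elongation, activation, hydrolysis and transport, held 6 called lower and 2 called higher. All of these called genes but acss1, acsl4 and acot12 are in the list of this contrast, where 98.9% of the tested genes were called. Elovl2, an elongase of polyunsaturated acyl chains, was at 1.73 and 5.75 CPM in H1H2Mo ACs and at 106.9 and 68.5 CPM in CoMo ACs, a 23.8-fold fall (-4.57 ± 0.54). The log2 fold change was -3.92 without H1H2Mo replicate 1 and -5.65 without H1H2Mo replicate 2. Elovl4, which makes the very long acyl chains of skin and retina, was at 0.686 and 1.68 CPM in H1H2Mo ACs and at 8.12 and 8.28 CPM in CoMo ACs (-2.82 ± 0.57). Both elongases were lower in each H1H2Mo library. For elovl4, 42.3% of the stranded reads lay on the opposite strand, and its log2 fold change was -2.10 in unstranded counts. It was -2.28 without H1H2Mo replicate 1 and -3.57 without H1H2Mo replicate 2. Elovl6 and the desaturase fads1 were at most at 2.78 CPM in any library, and their conditions overlapped.

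Acyl chains are activated to acyl-CoA by synthetases and released again by thioesterases, and in each family members were called in both directions. Acsl1, a long-chain acyl-CoA synthetase, was at 138.2 and 209.3 CPM in H1H2Mo ACs and at 512.3 and 429.2 CPM in CoMo ACs (-1.44 ± 0.37). Acsl4, the synthetase that prefers arachidonic acid, was at 310.4 and 175.1 CPM in H1H2Mo ACs and at 72.4 and 114.9 CPM in CoMo ACs (1.37 ± 0.39, edgeR, adjusted p = 0.029). The ratio of acsl1 to acsl4 was 0.445 and 1.19 in H1H2Mo ACs and 7.07 and 3.73 in CoMo ACs. Acot2, a mitochondrial thioesterase in mammals, was at 8.19 and 9.39 CPM in H1H2Mo ACs and at 54.1 and 34.4 CPM in CoMo ACs (-2.33 ± 0.37). Acot12, the thioesterase for acetyl-CoA in the mammalian cytosol, was at 49.4 and 40.6 CPM in H1H2Mo ACs and at 9.40 and 23.99 CPM in CoMo ACs (1.42 ± 0.42, edgeR, adjusted p = 0.037). Its log2 fold change was 0.93 without CoMo replicate 1 and 2.27 without CoMo replicate 2. The ratio of acot2 to acot12 was 0.166 and 0.231 in H1H2Mo ACs and 5.75 and 1.44 in CoMo ACs. The short-chain synthetases were lower. Acss3 was at 24.7 and 26.2 CPM in H1H2Mo ACs and at 67.3 and 78.1 CPM in CoMo ACs (-1.52 ± 0.32). Acss1, the mitochondrial acetyl-CoA synthetase, was at 1.12 and 0.447 CPM in H1H2Mo ACs and at 4.94 and 3.85 CPM in CoMo ACs (-2.45 ± 0.64, edgeR, adjusted p = 0.020). Its log2 fold change was -3.27 without H1H2Mo replicate 1 and -1.96 without H1H2Mo replicate 2. Acsbg2, a synthetase of another family, was not called at 82.4 and 108.2 CPM in H1H2Mo ACs and 50.04 and 59.6 CPM in CoMo ACs (0.80 ± 0.32, edgeR, adjusted p = 0.12). Cpt1b, which brings acyl chains into mitochondria, acot9 and acot11 were not called. Acsl4, acot12 and acss1 are outside the list of this contrast. Acsl4 and acot12 are named in lists that compare the same morpholinos with PHF8 mRNA against that mRNA alone.

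Of 18 further tested genes of fatty acid and neutral lipid handling, 7 were called lower and 2 higher (median -0.74). The acyl-CoA synthetases and fatty acid transporters slc27a2 (-1.77) and slc27a4 (-1.33) and the fatty acid binding protein fabp4 (-1.16) were lower and are outside the list of this contrast (edgeR, adjusted p = 0.0091, 0.013 and 0.033). Fabp4 was at 80.5 and 77.1 CPM in H1H2Mo ACs and at 208.5 and 143.9 CPM in CoMo ACs. Lower genes within that list were ppard (-3.56), a nuclear receptor for fatty acids, mgll (-2.74), the lipase of monoacylglycerol, pnpla1 (-1.74), which in mammals makes acylceramides of the skin barrier, and lpl, lipoprotein lipase, which had no read in H1H2Mo replicate 1. The lipid droplet protein plin3 (1.96) and abhd5 (1.41), which activates triacylglycerol lipase in mammals, were higher. Plin3 is in the list of this contrast and abhd5 is not (edgeR, adjusted p = 0.018). Acly, which makes cytosolic acetyl-CoA, was at 196.9 and 156.1 CPM in H1H2Mo ACs and at 311.2 and 335.5 CPM in CoMo ACs without being called (edgeR, adjusted p = 0.10). Among 16 genes of phospholipid and ether lipid metabolism 5 were called lower, ppap2b, gdpd5 (-2.33), napepld (-2.22), cds1 (-1.73) and mboat2 (-1.47), and 2 higher, gnpat (2.40), which starts ether lipid synthesis, and ptdss1 (1.91), a phosphatidylserine synthase. All of these called genes but ppap2b and cds1 are in the list of this contrast, and cds1 lay close to the threshold (edgeR, adjusted p = 0.0495). In all, 23 of the 77 tested genes of the 7 neighbouring lists were called lower and 10 higher, beside 26.4% lower and 13.0% higher among all genes with a symbol. Of the 55 among them outside the list of this contrast, 8 were lower and 3 higher, beside 6.35% lower and 6.26% higher among the genes named in the same way.

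**Figure D4:**
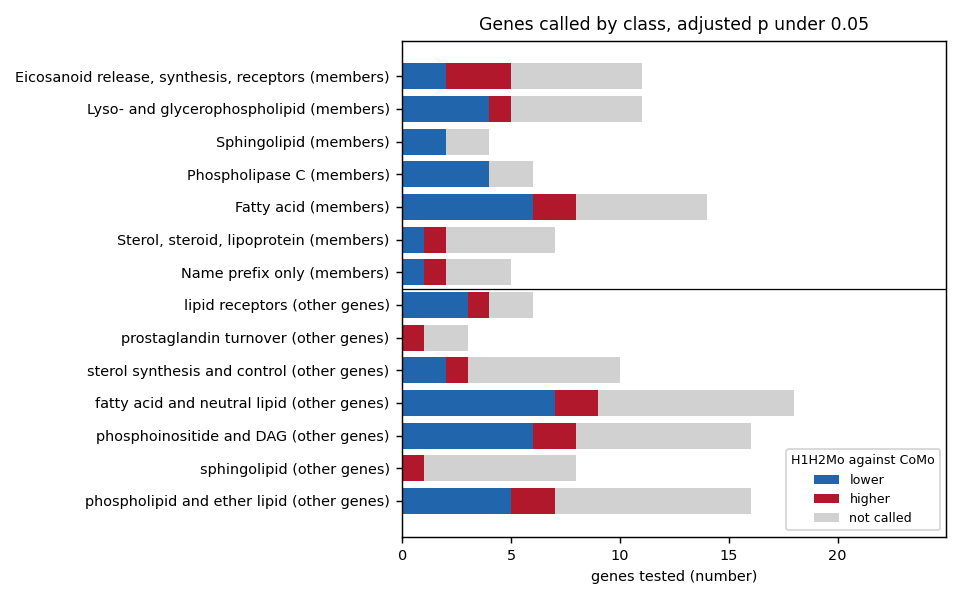
Number of genes tested in each class of the 58 lipid genes (upper bars) and in each list of neighbouring lipid genes (lower bars), split into called lower (blue), called higher (red) and not called (grey) in H1H2Mo against CoMo. Calls in both directions occur in most classes, while the phospholipases C and the sphingolipid members hold 4 and 2 lower calls and no higher one. All of these lower genes but plcg2 are in the list of this contrast, where 71.0% of the tested genes were called lower.

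Of the 7 sterol, steroid and lipoprotein genes, 1 was called lower and 1 higher, and outside the list of this contrast 1 of 6 was called, beside 12.6% of the genes named in the same way. Apoe, a lipid-carrying apolipoprotein, was at 0.541 and 0.112 CPM in H1H2Mo ACs and at 4.03 and 5.84 CPM in CoMo ACs, from 15 and 2 read pairs in H1H2Mo ACs and 66 and 256 in CoMo ACs. Its log2 fold change of -3.83 ± 0.74 was -5.40 without H1H2Mo replicate 1 and -3.18 without H1H2Mo replicate 2. Hsd17b10, a mitochondrial dehydrogenase of steroids and of branched short acyl chains, was at 44.9 and 47.2 CPM in H1H2Mo ACs and at 17.9 and 21.8 CPM in CoMo ACs, and it rose without being in the list of this contrast (1.21 ± 0.33, edgeR, adjusted p = 0.024). The remaining 5 genes did not pass the test: apoc1-like, the receptor ldlr, hsd17b7, hsd3b7 and hmgcs1, which encodes an early enzyme of sterol synthesis. Among further genes of sterol synthesis, mvd (2.16) was higher, and dhcr7 (-1.18), which is outside the list of this contrast, was lower (edgeR, adjusted p = 0.033).

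A shared prefix brought in 5 genes whose part in lipid metabolism is not settled by their name. Ldlrad1, which codes for a protein with a domain of the LDL receptor class, was at 4.11 and 4.08 CPM in H1H2Mo ACs and at 45.3 and 40.0 CPM in CoMo ACs (-3.38 ± 0.37). Dhrs12, a short-chain dehydrogenase, was at 60.6 and 76.3 CPM in H1H2Mo ACs and at 23.3 and 22.2 CPM in CoMo ACs (1.59 ± 0.33). Ldlrad1 and dhrs12 are both in the list of this contrast, where 98.9% of the tested genes were called. Neither shows overlap between conditions, while hsdl1, apoa1bp and ldlrad2, which were not called, do. Conditions were free of overlap in 59.5% of all genes tested.

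Of the 30 lipid genes that were not called, 24 had a mean under 20 CPM. Their means were at most 14.7 CPM and their log2 fold changes lay between -2.29 and 1.33, 12 of them positive and 12 negative. Both H1H2Mo libraries were clear of both CoMo libraries in 46 of the 58 genes (31 lower and 15 higher), against 59.5% of all genes tested (30.7% lower and 28.8% higher), and in 24 of the 36 outside the list of this contrast (66.7%, 13 lower and 11 higher), against 60.4% of the genes named in the same way (29.5% lower and 31.0% higher). Genes called in this test had log2 fold changes of at least 0.99 in size. Across the called lipid genes, the fold ranged from 2.69 to 28.4 among the 20 lower ones (median 5.98) and from 2.31 to 13.1 among the 8 higher ones (median 2.82). The list of this contrast, chosen for low p, names 18 of the lower and 4 of the higher ones. These medians therefore cannot be set against each other.

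Marker genes of cell types were called as well, and lower and higher in this paragraph mean called. All of the called markers are in the list of this contrast, where 98.9% of the tested genes were called (71.0% lower and 27.9% higher). Among all genes with a symbol, 26.4% were called lower and 13.0% higher. The summed level of 3 markers of small secretory cells (foxa1, ddc and chga) was 21.1 and 37.6 CPM in H1H2Mo ACs and 1511 and 1089 CPM in CoMo ACs, with all 3 lower. Of 7 ionocyte markers 3 were lower (220.9 and 310.4 CPM summed in H1H2Mo ACs, 542.4 and 426.7 in CoMo ACs). Of 5 markers of goblet and larval epidermal cells 4 were lower (itln1, itln2, xk81a1 and krt12), with sums of 3423 and 1391 CPM in H1H2Mo ACs and 4339 and 4013 CPM in CoMo ACs. Much of these sums came from xk81a1 and from otog, which was not called. Otog was at 2272 and 640 CPM in H1H2Mo ACs and at 875 and 1013 CPM in CoMo ACs. Of 6 epidermal markers 2 were lower (3305 and 2477 CPM in H1H2Mo ACs, 3445 and 4422 CPM in CoMo ACs), so that the labelled tissue expressed them in every library. Of 6 markers of multiciliated cells, tekt2 alone was called lower. The 6 summed to 606.9 and 1220 CPM in H1H2Mo ACs and to 1010 and 1156 CPM in CoMo ACs. Without being called, foxj1 lay below CoMo in both H1H2Mo libraries, and mci-like and cdc20b lay above. The study names foxj1, rfx2 and mci as transcriptional regulators of ciliogenesis and describes them as normal or slightly raised. It reports many cilium genes as down-regulated in the same contrast. The 6 markers of multiciliated cells therefore cannot stand for the cilium genes. Of 6 markers of mesoderm and endoderm 2 were called higher (98.6 and 65.9 CPM in H1H2Mo ACs, 13.4 and 26.0 CPM in CoMo ACs). All 6 had positive log2 fold changes. Of 5 tested neural and crest markers 3 were called lower and 1 higher. The neural and crest sums were 34.1 and 17.9 CPM in H1H2Mo ACs and 108.9 and 40.8 CPM in CoMo ACs. No defining marker list was at 0 in a library. In bulk ACs, fewer cells of a type and less RNA per cell cannot be told apart, and the part of these cell types in the lipid gene values was not tested.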

How the data were processed

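RNA-seq counts of X. tropicalis ACs at NF16 were used (2 H1H2Mo and 2 CoMo libraries, paired-end reads of 50 bp). The authors aligned the reads with STAR 2.7.1a to assembly 9.1 with an annotation converted by gffread of Cufflinks 2.2.1, and deposited raw counts per gene for either strand and for each strand. Reverse-strand counts were used here, since the kit is directional and 97.5% to 98.2% of stranded reads lay on that strand. Multimapping reads (6.81% to 8.11%) are not in the counts, so near-identical genes may be underestimated. An entry that names no gene (0.0675% to 0.242% of reverse-strand counts) was left out of library sizes and tests.

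Genes with 1 read or more in 75% of the libraries were tested in R 4.3.3 by the quasi-likelihood test of edgeR 4.0.16, with TMM scaling, no block and Benjamini-Hochberg adjustment over all genes tested. A standard error is the size of the log2 fold change over the square root of F. Alternatives were DESeq2 1.42.0, other scalings, filters and thresholds, unstranded counts, a replicate block and leaving out each library. The test was tried on simulated data. Symbols and chromosomes come from the parts of the authors' gene lists at hand; 56 of the 58 symbols are also RefSeq symbols. The fold changes and p-values in those lists were not used. The members, their roles and the lists were chosen with earlier results of these data known. Named with values in every library are the called members, ptgs1 and enpp2, and the uncalled members with a mean of at least 20 CPM, and of the other lists mainly the called genes. Ptges, pla2g6, cers6 and other uncalled members or list genes under that level were named after their values were seen. A gene of the neighbouring lists is counted in their totals and not reported here.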

Additional observations from a re-analysis of the deposited data

Results flagged for a closer look

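Reads on the strand opposite to the annotated transcript were not used in the comparisons. For cers2 they averaged 1.07 CPM in H1H2Mo ACs, with 0.974 and 1.17 CPM (27 and 21 read pairs) in H1H2Mo ACs and 0.244 and 0.319 CPM (4 and 14 read pairs) in CoMo ACs. They made up 0.105% of the stranded reads of cers2 over the 4 libraries. This is below the opposite-strand share of whole libraries, where 97.5% to 98.2% of stranded reads lay on the reverse strand. For lpcat1 they averaged 0.812 CPM in H1H2Mo ACs, with 1.01 and 0.614 CPM (28 and 11 read pairs) in H1H2Mo ACs and 0.0610 and 0.388 CPM (1 and 17 read pairs) in CoMo ACs. Over the 4 libraries this is 1.67% of its stranded reads. The share was larger in H1H2Mo ACs, where lpcat1 had 108 and 96 reverse-strand read pairs, against 1109 and 2039 in CoMo ACs. Both genes had at least 10 read pairs on that strand in each H1H2Mo library and higher CPM there than in either CoMo library. Other lipid genes, such as agpat4, plcg1 and sgpp2, had the same order of libraries. These differences were not tested.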

How the results depend on the processing

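All 28 called lipid genes kept their direction in each alternative run. Of these, 27 were called in every alternative that kept the 4 libraries and an adjusted p under 0.05, and the exception was plcg2. The 27 include the 22 genes in the list of this contrast. Those were named for a low p in these same libraries, so that their calls were largely set beforehand. Without one library in turn, between 6 and 30 lipid genes were called (between 6 and 21 lower, between 0 and 10 higher, and between 0 and 8 outside the list of this contrast), and of all genes between 541 and 3982 (lower between 498 and 2271, higher between 43 and 1711), against 3197 with all libraries (2067 lower and 1130 higher). The low values came without CoMo replicate 1, and the lone library of a condition was assumed to vary like the other condition. An adjusted p under 0.01 left 1542 genes (1171 lower, 371 higher) and 18 lipid genes, 4 of them higher and 0 outside the list of this contrast. Without a filter on low counts, 11 lipid genes outside that list were called. With the replicate number as a block, 3280 genes and 27 lipid genes were called. Same-numbered libraries deviated in opposite directions (r = -0.21 over 12535 genes). With 2 libraries per condition, crossed pairs have the same r with the opposite sign by construction. Such an r cannot show which libraries belong together. Crossed pairs, chosen after seeing the data, gave 4844 genes (2013 higher) and 14 lipid genes outside that list. Of the 30 uncalled lipid genes, 10 were called in at least 1 alternative. Few read pairs limit the precision of plcb2, apoe and other weakly expressed genes, and 2 libraries per condition that of the others.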
